A study of Rattus norvegicus with 12 samples.

Results

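Socs3 and Stat3 are the 2 genes described here, out of 32883 genes in a table of expression values from rat retina. They were taken by identifier, ENSRNOG00000002946 for Socs3 and ENSRNOG00000019742 for Stat3. They were picked with the comparison of retinopathy and sham retinas already known, Socs3 being the tested gene with the highest log2 fold change in that comparison when scrambled RNA was given. Their difference between retinopathy and sham is therefore given as a description, with no test. The table gives identifiers without names, and the RefSeq table at hand, with 47357 genes, held 0 Ensembl identifiers. The names are those under which the identifiers were selected, and they could not be checked against an annotation.

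The series compared 4 groups of 3 libraries, all from retinas of Sprague Dawley rats of wild-type genotype, aged 18 postnatal days. Oxygen-induced retinopathy (OIR) is a model in newborn rodents: oxygen first halts the spread of vessels over the retina, and the ischaemic tissue later drives misdirected vessel growth. The groups were sham with scrambled RNA, sham with miR-143 mimic, OIR with scrambled RNA and OIR with miR-143 mimic. A mimic is a synthetic duplex that stands in for the natural microRNA, and scrambled RNA is its control. The oxygen schedule, the dose and the time of injection do not appear among the labels used here, nor do these say whether the libraries within a group represent different animals. P-values then measure only the spread between these libraries, which may be technical.

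STAT3 is a transcription factor that is phosphorylated by Janus kinases when cytokines of the interleukin-6 family, such as LIF and CNTF, bind receptors that contain gp130. It then moves to the nucleus and activates genes, among them SOCS3. The SOCS3 protein binds the receptor and the kinases and shuts the signal off, so that the pair forms a negative feedback loop. In the retina, signalling through STAT3 is known above all from Müller glia, which respond to injury of the neurons. RNA levels do not show phosphorylation of STAT3, and in whole retina fewer cells of a type and less RNA per cell cannot be told apart.

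Levels are given in TPM, a unit that corrects reads for the length of the gene and for the size of the library. The reads behind them were recovered as whole numbers, with 10537600 to 13175005 reads on genes per library. In these values Socs3 had a length of 863 bases and Stat3 a length of 4428 bases. One read was worth 0.181 to 0.229 TPM for Socs3 and 0.0353 to 0.0446 TPM for Stat3. Low levels of Socs3 thus rest on few reads, while Stat3 had at least 892 reads in every library. In RefSeq both genes lie on the minus strand of chromosome 10 in build GRCr8. Socs3 spans 103692579 to 103695975 and Stat3 spans 86311528 to 86363513, introns included. The deposited values were made on another build, rn6, and these positions serve only to place the genes.

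Since both genes had higher levels in OIR, the sequence before their starts was read from the RefSeq promoter table. For Stat3, 96 bases lie upstream of every annotated transcript of the gene, at chr10:86363514-86363609 on the minus strand of GRCr8. They are shown 5′ to 3′, with a CCAAT box in capitals, a common promoter element that is read here on the opposite strand.
Stat3 upstream: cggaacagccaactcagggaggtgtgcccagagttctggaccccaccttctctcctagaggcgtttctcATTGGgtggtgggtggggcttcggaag

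The table's whole 250-base window before the Stat3 start was searched on both strands for a few motifs. The start used lies 154 bases inside the annotated gene, so only the outer 96 bases of the window lie upstream of every transcript. The window held 2 matches to CCAAT, a motif found in 34.0% of 33469 windows of this length. The STAT motif TTCNNNGAA, with 7.67% of windows, had 0 matches. The full cAMP response element TGACGTCA, with 1.59% of windows, also had 0 matches. Of the 2 core motifs of hypoxia-inducible factors, GCGTG occurred once (25.9% of windows) and ACGTG had 0 matches (16.6% of windows). These letters describe only this window. For Socs3 the start used lies 1207 bases inside the annotated gene, and the table's window does not reach the outer start. That window does not show the sequence before the outer start and was not used as the promoter of Socs3.

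Socs3, the feedback inhibitor, was near the lower end of the tested genes in sham retinas. With scrambled RNA, sham replicates 1, 2 and 3 had 0.684, 2.20 and 1.75 TPM, on 3, 11 and 9 reads. With the mimic, sham replicates 1, 2 and 3 had 2.28, 2.99 and 2.35 TPM, on 11, 16 and 13 reads. Counting error alone gave replicate 1 of sham with scrambled RNA an exact Poisson 95% interval of 0.141 to 2.00 TPM, whose upper end lies above the level of sham scrambled replicate 3 and below those of the other 4 sham libraries. The mean of 1.54 ± 0.777 TPM (SD, n = 3) in sham with scrambled RNA was above that of 10.4% of the 15916 tested genes, and the mean of 2.54 ± 0.391 TPM (SD, n = 3) in sham with the mimic was above 17.2%. Such intervals cover counting error only.

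In OIR retinas Socs3 stood in the upper part of the transcriptome. With scrambled RNA, OIR replicates 1, 2 and 3 had 37.3, 39.0 and 83.4 TPM, on 170, 194 and 404 reads. With the mimic, OIR replicates 1, 2 and 3 had 72.6, 22.3 and 15.8 TPM, on 344, 114 and 69 reads. Every OIR library lay above every sham library, the lowest OIR value being 15.8 TPM and the highest sham value 2.99 TPM. All 6 OIR libraries lay above all 6 sham libraries in 9.78% of the tested genes, and nothing is read from this for genes chosen on that contrast. The means of 53.2 ± 26.1 TPM with scrambled RNA and 36.9 ± 31.1 TPM with the mimic (SD, n = 3 each) were above those of 74.0% and 65.6% of the tested genes.

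The ratio of the Socs3 group means was 34.5 after scrambled RNA and 14.5 after the mimic. From the pooled reads, 768 against 23 with scrambled RNA, the counting interval of the ratio was 22.3 to 53.6, and from 527 against 40 reads with the mimic it was 10.5 to 20.6. On the log2(TPM + 1) scale, which understates the change of a gene this low in sham, the OIR minus sham difference was 4.36 (SE 0.49) after scrambled RNA and 3.12 (SE 0.49) after the mimic. It was the highest of all tested genes with scrambled RNA and ranked 7 with the mimic. Without OIR scrambled replicate 3 and OIR mimic replicate 1 the differences were 3.99 (SE 0.26) and 2.49 (SE 0.26).

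Stat3, the transcription factor, was already well expressed in sham and was 2.28 to 2.29 times as high in OIR. With scrambled RNA, sham replicates 1, 2 and 3 had 39.6, 45.5 and 36.4 TPM, and with the mimic they had 39.6, 40.1 and 37.9 TPM. The 6 sham libraries thus lay within 1.25 times of each other, although they rest on 892 to 1170 reads each. The OIR libraries with scrambled RNA had 68.2, 78.9 and 129.7 TPM, and those with the mimic had 105.2, 82.3 and 81.6 TPM. Again no OIR library reached down to the sham range, whose highest value was 45.5 TPM.

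The group means of Stat3 were 40.5 ± 4.63 TPM in sham and 92.3 ± 32.8 TPM in OIR with scrambled RNA (SD, n = 3 each). With the mimic they were 39.2 ± 1.15 TPM in sham and 89.7 ± 13.5 TPM in OIR (SD, n = 3 each). The ratio of means was 2.28 with scrambled RNA (counting interval 2.19 to 2.39 from pooled reads) and 2.29 with the mimic (2.19 to 2.39). The log2(TPM + 1) difference was 1.12 (SE 0.19) with scrambled RNA, where 2.33% of the tested genes had a higher one, and 1.16 (SE 0.19) with the mimic, where 1.87% had a higher one. Without OIR scrambled replicate 3 and OIR mimic replicate 1 it was 0.85 (SE 0.10) and 1.04 (SE 0.10). For comparison, the median difference over all tested genes was 0.05 after scrambled RNA and 0.04 after the mimic.

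**Figure D1:**
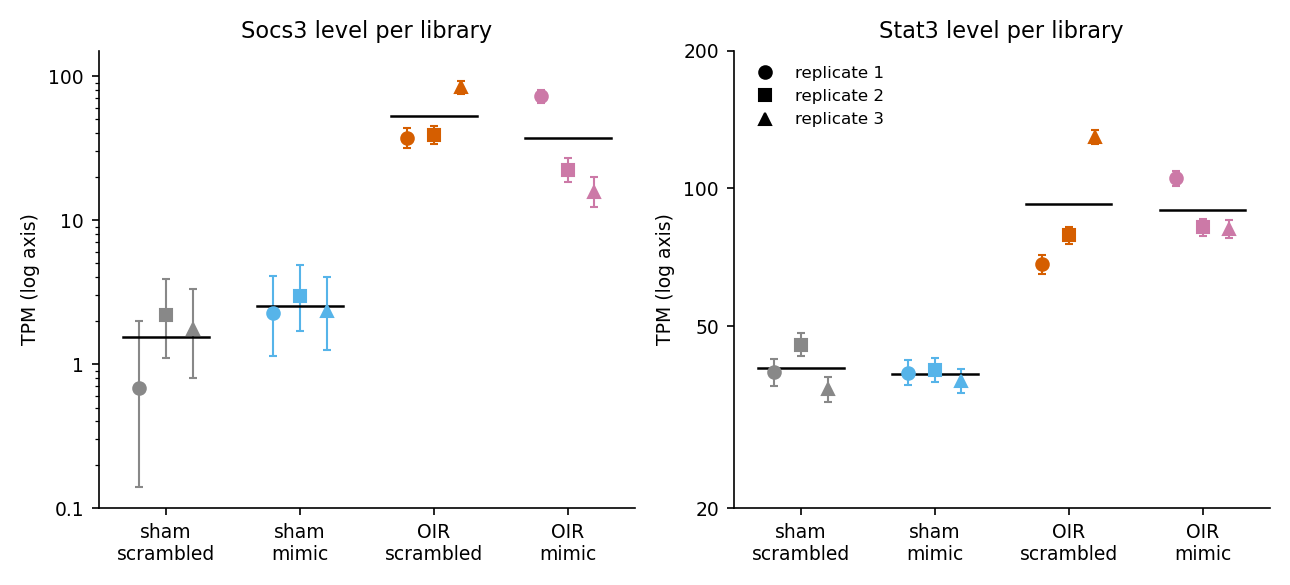
Levels of Socs3 (left) and Stat3 (right) in TPM on log axes for each of the 12 libraries by group, with marker shapes for replicates 1 to 3. Vertical bars are exact Poisson 95% intervals from the recovered reads (counting error only) and black lines are group means. Every OIR library lies above every sham library for both genes, and OIR scrambled replicate 3 (83.4 and 129.7 TPM) and OIR mimic replicate 1 (72.6 and 105.2 TPM) are the highest.

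In order of group means, Socs3 was lowest in sham with scrambled RNA, then sham with the mimic, OIR with the mimic and OIR with scrambled RNA. The neighbours within OIR overlapped, while those within sham were separated by less than the value of 1 read. For Stat3 the order was sham with the mimic, sham with scrambled RNA, OIR with the mimic and OIR with scrambled RNA, and the neighbours overlapped within sham and within OIR.

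The 2 genes differed in how much the OIR libraries spread. Socs3 had a coefficient of variation of 49.1% in OIR with scrambled RNA and 84.3% in OIR with the mimic, where counting error alone gives 6.25% and 7.55%. For Stat3 the values were 35.6% and 15.0%, against 2.10% and 2.14% from counting. In sham the spread of Socs3, 50.3% with scrambled RNA and 15.4% with the mimic, stood beside 36.2% and 27.4% from counting, so at this depth little of it could be told from the sampling of reads. On the log2(TPM + 1) scale the residual SD of Socs3 within groups was 0.69, higher than in 96.9% of 2162 tested genes of like mean level (median 0.19). That of Stat3 was 0.27, higher than in 96.0% of 2520 genes of like level (median 0.11). Both residual SDs include OIR scrambled replicate 3 and OIR mimic replicate 1 and were not recomputed without them. With these libraries left out, the SE of the OIR minus sham difference with scrambled RNA fell from 0.49 to 0.26 for Socs3. For Stat3 it fell from 0.19 to 0.10.

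Within OIR, 2 libraries were the highest for both genes, OIR scrambled replicate 3 and OIR mimic replicate 1. They are also the 2 libraries whose records lack the tags for disease and transfection, so that their groups rest on their titles. Both lay above the other 4 OIR libraries in 13.9% of the tested genes, and the part of these libraries in the results was not tested further than by leaving them out.

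The mimic was compared with scrambled RNA next. Both genes were chosen with the OIR contrasts of these same libraries known, so these tests cannot be taken as independent of that choice. In OIR the mimic group of Socs3 held both the lowest libraries (15.8 and 22.3 TPM) and the second highest (72.6 TPM), and it overlapped the scrambled group. The log2(TPM + 1) difference of mimic minus scrambled RNA was -0.72 (SE 0.49, 95% interval -1.81 to 0.37) with a limma adjusted p of 0.689 over all tested genes. The interval spans a large decrease as well as a small increase, so neither a change nor its absence is shown.

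Single libraries moved this estimate. Without OIR mimic replicate 1 the Socs3 difference was -1.35 (SE 0.36, limma adjusted p 0.107), and without OIR mimic replicate 3 it was -0.29 (SE 0.48, limma adjusted p 0.873). Without OIR scrambled replicate 3 it was -0.35 (SE 0.52, limma adjusted p 0.861). With both untagged libraries left out, OIR with the mimic (15.8 and 22.3 TPM) lay below OIR with scrambled RNA (37.3 and 39.0 TPM), which also held for 30.1% of the tested genes. The difference was then -0.98 (SE 0.28), with a limma adjusted p of 0.173, so it still missed the threshold of 0.05.

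Stat3 in OIR showed a mimic difference of 0.01 (SE 0.19, 95% interval -0.42 to 0.43), with a limma adjusted p of 1. The interval leaves room for modest changes in either direction. Its sign turned when OIR scrambled replicate 1 (-0.18), OIR scrambled replicate 2 (-0.08) or OIR mimic replicate 1 (-0.11) was left out, and without OIR scrambled replicate 3 it was 0.28 (SE 0.13, limma adjusted p 0.571). The mimic comparison in OIR called 0% of the tested genes, neither Socs3 nor Stat3 among them. Without OIR mimic replicate 1 it called 25 genes, and without both untagged libraries 28, again without Socs3 or Stat3. Without adjustment 1491 genes had a p below 0.05, and voom, run on recovered reads, called 0.

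**Figure D2:**
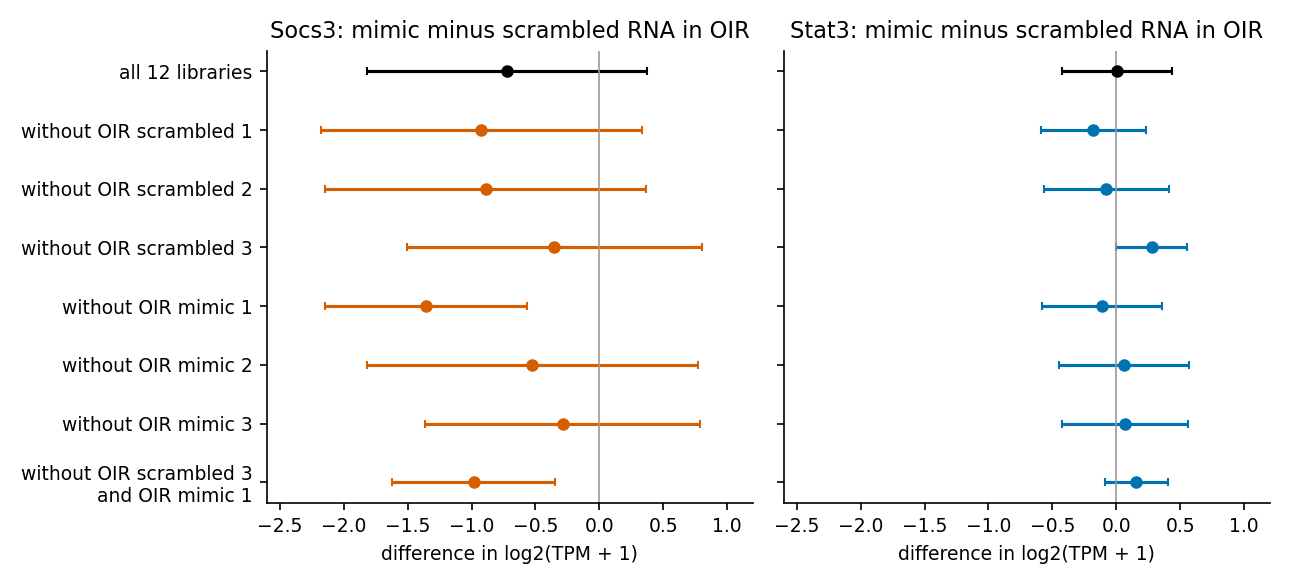
Difference of mimic minus scrambled RNA in OIR on the log2(TPM + 1) scale for Socs3 (left) and Stat3 (right), with 95% limma intervals as horizontal bars. The black point uses all 12 libraries and each coloured point leaves out the library or libraries named; for Socs3 every estimate is below 0, from -1.35 to -0.29, and for Stat3 the estimates lie on both sides of 0.

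In sham retinas the 3 mimic libraries of Socs3 (2.28 to 2.99 TPM) lay just above the 3 scrambled libraries (0.684 to 2.20 TPM). Groups were separated in this direction in 2.83% of the tested genes. The log2(TPM + 1) difference was 0.52 (SE 0.49, 95% interval -0.57 to 1.62) with a limma adjusted p of 1. It rests on 40 reads with the mimic and 23 with scrambled RNA, for which the counting interval of the ratio, 0.941 to 2.82, includes no change. Without sham scrambled replicate 1, the library with 3 reads, the difference was 0.25 (SE 0.55, limma adjusted p 1), and without sham scrambled replicate 2 it was 0.71 (SE 0.56, limma adjusted p 1). The column names of replicate 1 in both sham groups share a number, followed by R for scrambled RNA and L for the mimic. What the number stands for is not stated in the labels. If it marks 1 animal, the fit counts these 2 libraries as independent when they are not; without both, the Socs3 difference in sham was 0.30 (SE 0.64, limma adjusted p 1) and that of Stat3 -0.06 (SE 0.26, limma adjusted p 1). Stat3 had a difference of -0.04 (SE 0.19, 95% interval -0.47 to 0.39, limma adjusted p 1), which was 0.05 without sham scrambled replicate 2. The comparison called 0% of the tested genes, with 333 at an unadjusted p below 0.05 and 0 called by limma voom.

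Both genes were chosen with the OIR contrasts known, and Socs3 had the highest of all tested genes with scrambled RNA. A choice made on the scrambled libraries would favour a lower mimic estimate in OIR and a higher one in sham. The estimates for Socs3 pointed down in OIR and up in sham. Whether the choice shaped them was not tested, so these directions are not read as an effect of the mimic. The interaction tests the difference between the mimic estimates in OIR and in sham, with the same limit. It was -1.24 for Socs3 (SE 0.70, 95% interval -2.79 to 0.30, limma adjusted p 1) and 0.05 for Stat3 (SE 0.27, 95% interval -0.56 to 0.65, limma adjusted p 1). The Socs3 value was -1.88 (SE 0.48, limma adjusted p 0.388) without OIR mimic replicate 1 and -0.81 (SE 0.65, limma adjusted p 1.00) without OIR mimic replicate 3. With both untagged libraries left out it was -1.51 (SE 0.37, limma adjusted p 0.373). The interaction called 0% of the tested genes, with 589 at an unadjusted p below 0.05 and 0 called by limma voom. In the names of the deposited columns the letter L stands in each mimic library and R in each scrambled library, so the letter and the injection cannot be told apart.

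TPM is per length, so the inhibitor can be set against the transcription factor within a library. Such a ratio depends on the lengths behind the values, 863 bases for Socs3 and 4428 bases for Stat3. The ratio of Socs3 to Stat3 was 0.0173, 0.0482 and 0.0481 in sham replicates 1, 2 and 3 with scrambled RNA, and 0.0576, 0.0745 and 0.0621 with the mimic. In OIR it was 0.547, 0.494 and 0.643 with scrambled RNA, and 0.690, 0.271 and 0.193 with the mimic. Stat3 thus had the higher TPM in all 12 libraries, by a smaller factor in every OIR library than in any sham library. The smaller factor in OIR is largely given by the choice of Socs3 for its rise there, and nothing further is read from it.

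The log2 ratio of mimic minus scrambled RNA was -0.75 in OIR (exact permutation test, two-sided, p = 0.4, adjusted p = 0.4 over 2 tests) and 0.91 in sham (exact permutation p = 0.1, adjusted p = 0.2). With 3 against 3 libraries the smallest p possible is 0.1. In OIR the 2 mimic libraries with the lowest ratio had Stat3 levels of 82.3 and 81.6 TPM, above those of OIR scrambled replicates 1 and 2, while their Socs3 levels were the lowest of the 6. Without OIR mimic replicate 1 the log2 ratio difference in OIR was -1.28 and without OIR mimic replicate 3 it was -0.37. Without sham scrambled replicate 1 the value in sham was 0.42.

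**Figure D3:**
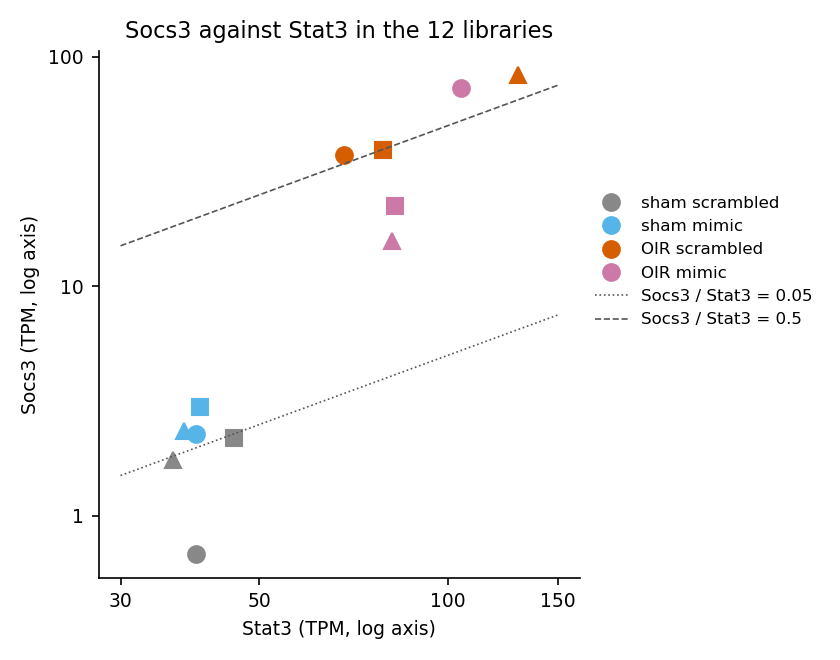
Socs3 against Stat3 in TPM, both on log axes, with 1 point per library, colours for the 4 groups and shapes for replicates 1 to 3 as in the plot of levels. Lines mark Socs3 to Stat3 ratios of 0.05 (dotted) and 0.5 (dashed); OIR scrambled replicate 2 lies just under the dashed line, at 0.494, and OIR mimic replicates 2 and 3 lie further below it, at 0.271 and 0.193, with Stat3 inside the range of the OIR scrambled libraries.

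How the genes vary together within a condition was not used to pick them, and it allows a test of whether libraries with more Stat3 also had more Socs3. Both injections were pooled in each condition, so r also takes in any difference between their groups. Among the 6 OIR libraries the Pearson r of log2(TPM + 1) was 0.704 (exact permutation p = 0.126, adjusted p = 0.252 over 2 relations) and Spearman's rho was 0.543 (exact permutation p = 0.297, adjusted p = 0.594). Without the 2 libraries farthest from the median Stat3 level, which were the untagged ones, r was -0.65 over the other 4 libraries, so the relation rests on those 2. Among the 6 sham libraries r was 0.136 (exact permutation p = 0.733, adjusted p = 0.733) and rho 0.143 (exact permutation p = 0.803, adjusted p = 0.803). Without the 2 farthest libraries r was -0.0729 there. Neither relation passed its test, and r within OIR was lower without OIR scrambled replicate 3, at 0.473.

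Across all 12 libraries the pattern of each gene was compared, as a description, with that of 12053 other genes with a mean of at least 5 TPM, the other member included. A Pearson r of at least 0.9 with Socs3 was found for 386 genes and with Stat3 for 546, a likeness that the gap between OIR and sham makes easy to reach. The gene most like Socs3 was ENSRNOG00000018669, with an r of 0.981. It had 4.22 to 6.14 TPM in the 6 sham libraries and 13.1 to 29.3 TPM in the 6 OIR libraries. The gene most like Stat3 was ENSRNOG00000038597, with an r of 0.993. It had 43.4 to 49.6 TPM in sham and 64.8 to 101.6 TPM in OIR. The next 2 genes had an r of 0.978 and 0.977 with Socs3, and of 0.992 and 0.991 with Stat3. Identifiers are printed only for the gene most like each member, and none of these genes could be paired with a name. After subtraction of the group means, 11 genes had an r of at least 0.9 with Socs3 and 81 with Stat3. By that measure Stat3 stood at rank 272 among the genes most like Socs3, with an r of 0.739. This r includes the untagged libraries and was not recomputed without them. The r of -0.65 within OIR without them was taken over both injections with no group means subtracted. It therefore does not show what this r would be without them.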

How the data were processed

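The deposited file holds TPM values, as computed by the authors, for 32883 Ensembl genes in 12 columns, all of which were mapped to samples through the lines above the table. Per the submitters' processing notes FastQC, TopHat, Cufflinks, Cuffdiff and build rn6 were used; which tool counted reads, and on which annotation, is not stated there. Per the labels' protocols libraries were single-end and the text speaks of miRNA libraries, while the table lists genes.

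Reads and gene lengths were recovered as the smallest whole numbers that give the TPM values (tolerance 0.02 for a whole number), for 22310 genes above 0, with a relative error of recomputed TPM of at most 5.4e-08. The recovery and the fit were also run on simulated data, with the outcomes not given here, so the power of the fit is not stated. Genes with at least 1 TPM in at least 3 libraries (15916) were fitted as log2(TPM + 1) with limma 3.58.1 (R 4.3.3). The model had a mean for each of the 4 groups, which left 8 residual degrees of freedom, and used the trend and robust options and Benjamini-Hochberg adjustment over all tested genes (threshold 0.05).

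Members, gene lists and tests were chosen with earlier results of these data known. The rule for named genes took both members and, for each, the 3 genes most alike with a mean of at least 5 TPM; identifiers are printed for the first of these only. Lists of JAK-STAT pathway genes and of retinal cell type markers were fixed by symbol, and since 0 identifiers could be matched to symbols none was used and the tissue was not checked against markers. Column numbers run separately in sham and OIR, so their order and the condition cannot be told apart.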

Additional observations from a re-analysis of the deposited data

How the results depend on the processing

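Each fold change was recomputed with other pseudocounts, filters, scalings, limma options, voom on recovered reads and libraries left out. The correlations were recomputed with other pseudocounts, scalings and libraries left out, and the ratios only with libraries left out. Leaving out the 2 libraries with a shared column number, and all alternatives for the ratio, were chosen after seeing the data. No tested difference of Socs3 or Stat3 passed the threshold under any alternative run. The replicate numbers were not taken to pair the libraries over the groups, since the correlation of same-numbered libraries ran from -0.048 to 0.258; the highest was that of sham scrambled and sham mimic replicate 1, which share a column number. With the replicate block the mimic differences in OIR stayed at -0.72 (SE 0.56) for Socs3 and 0.01 (SE 0.21) for Stat3. With 1 library left out, the Stat3 difference lay between -0.18 and 0.28 for the mimic in OIR, between -0.11 and 0.045 for the mimic in sham and between -0.14 and 0.32 for the interaction, so its sign was not fixed. The correlation within OIR was -0.65 without the 2 libraries lacking condition tags. The Socs3 difference between OIR and sham lay between 3.99 and 5.05 with scrambled RNA and between 2.49 and 3.55 with the mimic over all alternatives, the highest with scrambled RNA at a pseudocount of 0.1. Depth limits Socs3 in sham, where 3 to 16 reads per library were counted. Planned lists of pathway genes were not run because no symbols could be matched.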
